A study of Mus musculus with 4 samples.

Results

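Serotonin acts on a family of receptors, and the monoamine oxidases break it down after it has been taken back into cells. The 9 genes described here are 7 serotonin receptor genes (Htr1a, Htr1b, Htr2a, Htr2c, Htr4, Htr5a and Htr7) and the 2 monoamine oxidase genes (Maoa and Maob). They were picked by name, with results of these data known, from a deposited table of 15713 genes, and all 9 were found and tested. RNA sequencing had been done on the hippocampus of mice of the inbred strain C57BL/6 at an age of 11 to 12 weeks. Of the 4 libraries, 2 are labelled control and came from untreated mice, and the other 2 are labelled ATO, with developmental exposure at 5000 ppb. The labels do not spell out ATO, but the series title speaks of arsenic-exposed offspring. They give neither the route and window of exposure nor the number of animals behind a library, so the replicates may differ for technical reasons alone.

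All these receptors sit in the cell membrane and signal through G proteins. Htr1a, Htr1b and Htr5a lower cyclic AMP through Gi/o proteins, Htr2a and Htr2c raise calcium through Gq and phospholipase C, and Htr4 and Htr7 raise cyclic AMP through Gs. In the hippocampus serotonin arrives in fibres from the raphe nuclei of the brainstem, whose cell bodies lie outside it, and Htr1a is a main receptor of its pyramidal and granule neurons. Htr2c is known for very strong expression in the choroid plexus, where cerebrospinal fluid is made, as well as in neurons. The monoamine oxidases sit on the outer membrane of mitochondria, where MAO-A prefers serotonin and noradrenaline and MAO-B, abundant in astrocytes, prefers phenylethylamine.

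Htr2c was higher in ATO than in control, 1.61-fold, and Htr1a was 1.32-fold higher. Maoa was lower, at 0.754 of the control level, while for its neighbour Maob the groups overlapped. In the quasi-likelihood fit of edgeR over all genes (a gene is past the threshold at a Benjamini-Hochberg adjusted p under 0.05), these 3 of the 9 genes were past the threshold, against 3.73% of the 15713 genes tested (2.87% higher and 0.859% lower in ATO). The 9 were chosen with this contrast known, so their own values are a description and the count carries no evidence. Both ATO libraries lay outside the range of both controls for 5 of the 9, with 3 higher and 2 lower, and for 48.1% of all genes (24.8% higher and 23.4% lower). The median log2 fold change was 0.12 over the 9 genes and 0.00 over all genes, and the median size, regardless of sign, was 0.35 against 0.14. Counts of the 9 genes ran from 96 to 947 per library, which gives a counting error (1 SD, Poisson) of 10.2% at the lowest and 3.25% at the highest.

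**Figure D1:**
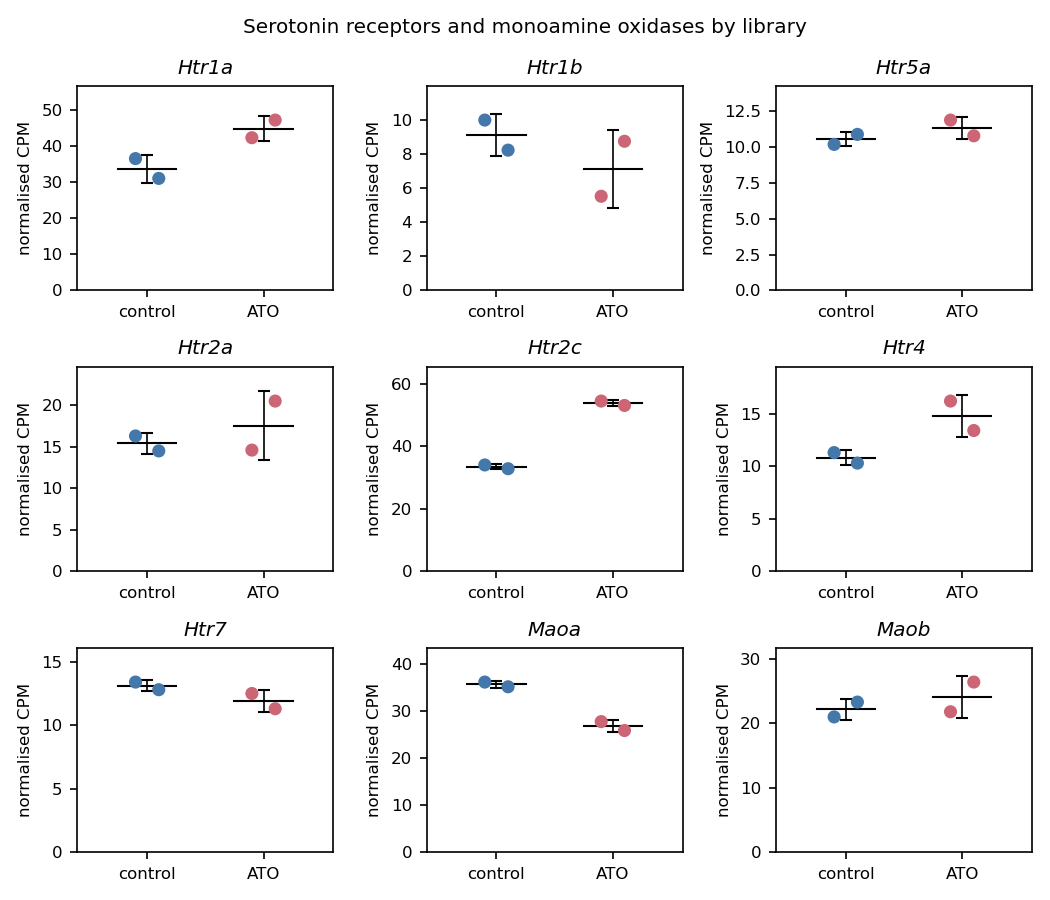
Normalised CPM (counts scaled by library size, linear axes from 0) of the 9 genes in the 2 control and 2 ATO libraries, where each point is a library, each long line a group mean and each bar 1 SD (n = 2). The ATO points lie above both controls for Htr1a, Htr2c and Htr4 and below both for Htr7 and Maoa, and the groups overlap for the other genes.

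Bases just before the transcript start are shown for the 3 genes past the threshold, to set beside their values. They come from RefSeq's GRCm38.p6 promoters, which held 7 of the 9 genes (Htr4 and Maob had no entry), and stop before the first base of the GENCODE gene. Capitals mark a GC box (GGGCGG on either strand), the sequence that Sp1 proteins bind. Htr2c had no GC box in this window (X chromosome, plus strand, chrX:146962263-146962512), while Htr1a (chr13:105443443-105443638, plus strand) and Maoa (chrX:16619448-16619697, plus strand) had 1 each. Of 32851 RefSeq windows of 250 bases, 32.7% held a GC box. A TATA box (TATAAA on either strand, in 12.4% of those windows) was in none of the 3 sequences. A match of letters is no measure of binding.
Htr2c: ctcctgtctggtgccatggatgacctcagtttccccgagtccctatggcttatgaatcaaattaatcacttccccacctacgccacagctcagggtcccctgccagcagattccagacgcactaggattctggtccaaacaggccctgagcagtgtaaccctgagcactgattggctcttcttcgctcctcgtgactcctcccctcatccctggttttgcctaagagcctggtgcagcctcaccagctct
Htr1a: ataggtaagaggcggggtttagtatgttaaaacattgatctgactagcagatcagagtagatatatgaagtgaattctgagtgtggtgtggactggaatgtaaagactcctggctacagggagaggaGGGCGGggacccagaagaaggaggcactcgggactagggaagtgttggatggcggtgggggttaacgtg
Maoa: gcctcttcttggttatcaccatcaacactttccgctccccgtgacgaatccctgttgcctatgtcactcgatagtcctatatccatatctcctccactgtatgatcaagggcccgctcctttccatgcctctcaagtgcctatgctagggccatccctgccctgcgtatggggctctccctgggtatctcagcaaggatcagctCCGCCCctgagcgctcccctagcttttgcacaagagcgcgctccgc

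Htr2c (ENSMUSG00000041380, X chromosome from 146962513 to 147197277, plus strand, GRCm38) encodes the 5-HT2C receptor. Its counts were 501 and 496 in control replicates 1 and 2 and 947 and 880 in ATO replicates 1 and 2. After scaling by library size with TMM factors these were 34.0 and 32.8 CPM in control and 54.4 and 53.0 in ATO. The replicates of each group lay close together and the groups far apart. The means were 33.4 ± 0.805 and 53.7 ± 0.981 CPM (SD, n = 2), a log2 fold change of 0.68 ± 0.09 (SE). It was the highest of the 9 fold changes and stayed between 0.66 and 0.71 when each library was left out in turn. Htr2c was past the threshold under every alternative that kept all libraries. Of these, the fit without a low-count filter repeats the main one. In the authors' deposited table Htr2c had a log2 fold change of 0.68 and an adjusted p of 0.00071.

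Markers of the choroid plexus, like Htr2c, were higher in ATO than in control. Of 20 such genes 18 rose in ATO by the edgeR test, against 2.87% of all genes. The list was chosen with earlier results of these data known, so the count is a description. The summed level of these genes was 161 and 238 CPM in control, and in ATO 3377 and 4232. Transthyretin (Ttr), with the highest CPM of them in ATO, stood at 20.4 and 61.8 CPM in control and 2286 and 2873 in ATO. All were counted in each library except Wfdc2, which had 0 counts in both controls, and those that did not pass were Slc5a5 and Cox8b, chosen after their values were seen. The difference between the group means was 20.3 CPM for Htr2c and 3605 CPM for the summed markers. Whether Htr2c follows these markers within a group cannot be read from the replicates. The counting error of Htr2c (1 SD, Poisson) was 4.49% at its lowest count and 3.25% at its highest, so a small shift would not show. The ratio of replicate 2 to replicate 1 was 0.966 in control and 0.974 in ATO for Htr2c. For the summed markers it was 1.48 in control and 1.25 in ATO. What part of the Htr2c difference goes with these markers was not tested. In bulk tissue a change in the number of cells of a type and a change in RNA per cell cannot be told apart, here and for all genes below.

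**Figure D2:**
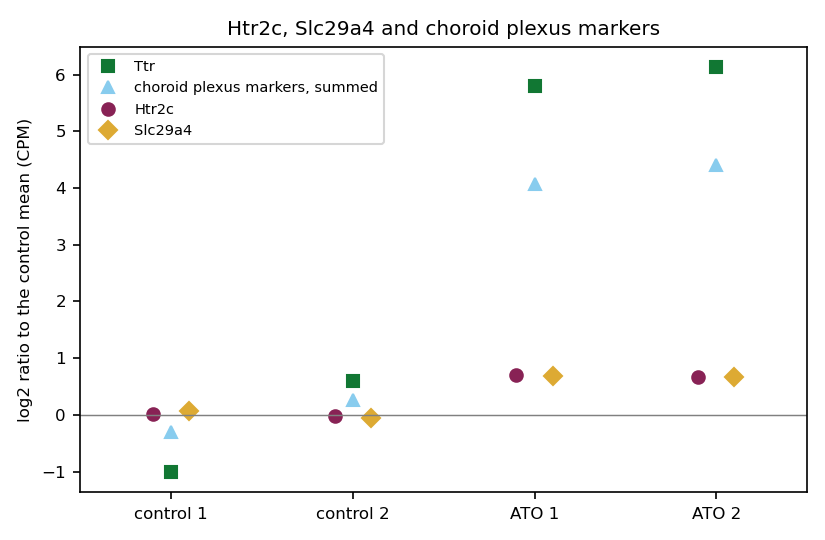
Log2 ratio of CPM to the control mean in each of the 4 libraries for Htr2c, the transporter gene Slc29a4, Ttr and the summed 20 choroid plexus markers; each point is 1 library. In ATO the Htr2c points lie at 0.70 and 0.66 and the summed markers at 4.08 and 4.41.

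Htr2a (ENSMUSG00000034997, chromosome 14 from 74640840 to 74709494, plus strand), the other Gq-coupled receptor among the 9, had 16.3 and 14.5 CPM in control, and in ATO 14.6 and 20.5. ATO replicate 1 lay inside the control range and replicate 2 above it. Its log2 fold change was 0.19 ± 0.16 (SE) and turned to -0.08 without ATO replicate 2, so no direction can be given.

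Htr1a (ENSMUSG00000021721, chromosome 13 from 105443639 to 105448122, plus strand), a gene of a single exon, had 539 and 470 counts in control and 738 and 785 in ATO. These corresponded to 36.6 and 31.1 CPM in control and 42.4 and 47.3 in ATO, so the groups did not overlap, but the gap between the nearest libraries was about as wide as that between the controls. The means were 33.8 ± 3.85 and 44.8 ± 3.46 CPM (SD, n = 2), and the log2 fold change was 0.40 ± 0.11 (SE). The value ran from 0.29 to 0.53 with 1 library left out. The authors' deposited table gave Htr1a a log2 fold change of 0.41 and an adjusted p of 0.0546. Htr1a was no longer past the threshold in limma-voom or DESeq2, when scaled by library size only, or when either replicate 2 (control or ATO) was left out.

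Htr1b (ENSMUSG00000049511, chromosome 9 from 81628291 to 81633828, minus strand), in the brain largely a receptor of axon terminals, had 9.97 and 8.21 CPM in control and 5.51 and 8.73 in ATO. The groups overlapped, since ATO replicate 2 lay between the controls. The log2 fold change of -0.35 ± 0.22 (SE) became -0.72 without ATO replicate 2 and -0.06 without ATO replicate 1, so a single library set its size. The antisense gene D430036J16Rik shares 852 exon bases with Htr1b and had 13 to 36 counts per library. The strand setting of the counting is not given in the sources used here, so reads of these overlapping genes cannot be told apart. Htr5a (ENSMUSG00000039106, chromosome 5 from 27842149 to 27855088, plus strand), the third Gi/o-coupled receptor, had 10.2 and 10.9 CPM in control and 11.9 and 10.8 in ATO. Its log2 fold change was 0.11 ± 0.16 (SE), smaller than its error.

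Of the Gs-coupled receptors, Htr4 was higher and Htr7 slightly lower in both ATO libraries than in both controls, but neither was past the threshold. Htr4 (ENSMUSG00000026322, chromosome 18 from 62324204 to 62496577, plus strand) had 11.3 and 10.3 CPM in control and 16.2 and 13.4 in ATO. Its log2 fold change of 0.46 ± 0.16 (SE) exceeded that of Htr1a, yet rested on 156 to 283 counts per library. Htr7 (ENSMUSG00000024798, chromosome 19 from 35958734 to 36057507, minus strand) had 13.4 and 12.8 CPM in control and 12.5 and 11.3 in ATO. Its log2 fold change of -0.13 ± 0.15 (SE) was within its error although the groups did not overlap.

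**Figure D3:**
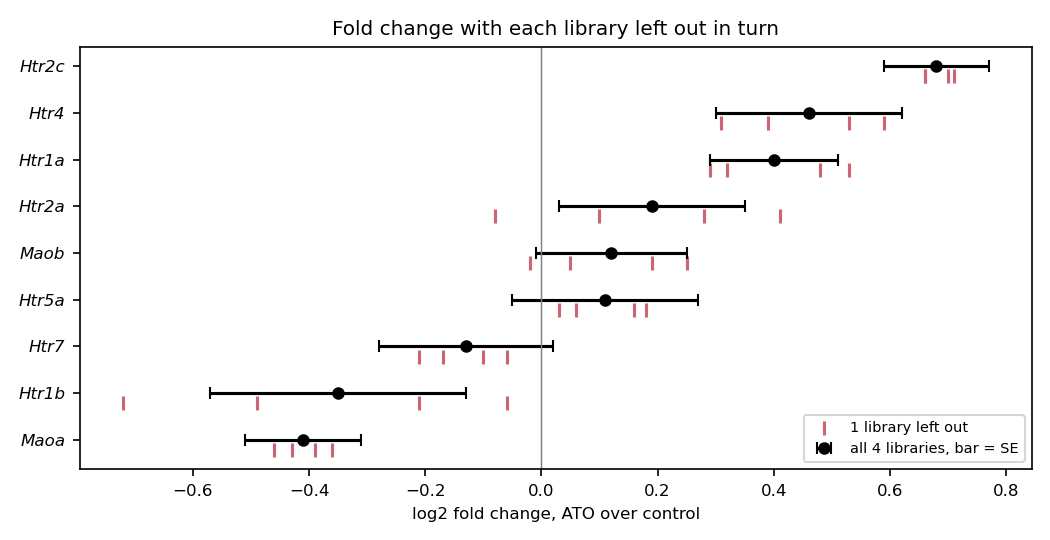
Log2 fold change of ATO over control for the 9 genes (black, all 4 libraries, bar = SE) and with 1 library left out (red ticks). The ticks of Htr2c lie between 0.66 and 0.71, whereas those of Htr1b reach from -0.72 to -0.06 and those of Htr2a and Maob cross 0.

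The oxidase genes lie next to each other on the X chromosome with their 3′ ends facing, Maoa (ENSMUSG00000025037) from 16619698 to 16687818 on the plus strand and Maob (ENSMUSG00000040147) from 16709282 to 16817366 on the minus strand. The 21463 bases between them keep their annotated exons apart. Maoa had 533 and 531 counts in control and 484 and 431 in the larger ATO libraries. In CPM these were 36.2 and 35.2 in control and 27.8 and 25.9 in ATO, with both ATO libraries well below the controls. The means were 35.7 ± 0.701 and 26.9 ± 1.30 CPM (SD, n = 2), and the log2 fold change was -0.41 ± 0.10 (SE), between -0.46 and -0.36 with 1 library left out. The sign held throughout, but Maoa was not past the threshold in DESeq2, when scaled by library size only, or with any 1 of the 4 libraries left out. The authors' deposited table gave it a log2 fold change of -0.41 and an adjusted p of 0.0456. Maob had 21.0 and 23.3 CPM in control and 21.8 and 26.4 in ATO. These groups overlapped, and the log2 fold change of 0.12 ± 0.13 (SE) turned to -0.02 without ATO replicate 2. The ratio of Maoa to Maob, on the FPKM scale, was 1.15 and 1.01 in control, and in ATO 0.853 and 0.658.

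Levels of different genes can be compared only per length, for which the authors' deposited FPKM values were used. In control the order was Maoa (8.52 ± 0.120 FPKM, SD, n = 2), Maob (7.92 ± 0.615), Htr1a (7.50 ± 0.813), Htr7 (3.83 ± 0.0990), Htr2c (3.56 ± 0.0636), Htr2a (2.74 ± 0.219), Htr4 (2.20 ± 0.134), Htr5a (1.95 ± 0.106) and Htr1b (1.92 ± 0.247). The libraries of Maob and Htr1a overlapped, as did those of Htr5a and Htr1b, so these neighbours have no order. In ATO the order began with Htr1a (9.99 ± 0.665 FPKM), Maob (8.63 ± 1.07), Maoa (6.45 ± 0.382) and Htr2c (5.75 ± 0.163). Then came Htr7, Htr2a and Htr4, of which each overlapped the next, and last Htr5a and Htr1b. Maoa thus went from the first to the third place and Htr2c passed Htr7. Htr1a supplied 32.7% and 30.6% of the summed FPKM of the 7 receptor genes in control, and in ATO 33.4% and 35.3%. The share of Htr2c was 14.6% and 15.5% in control and 20.6% and 19.1% in ATO. By coupling, the Gq pair summed to 6.50 and 6.10 FPKM in control and 8.49 and 9.28 in ATO. The 3 Gi/o receptors summed to 12.05 and 10.7 FPKM in control and 12.94 and 14.28 in ATO, and the Gs pair to 6.19 and 5.86 against 7.04 and 6.03.

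**Figure D4:**
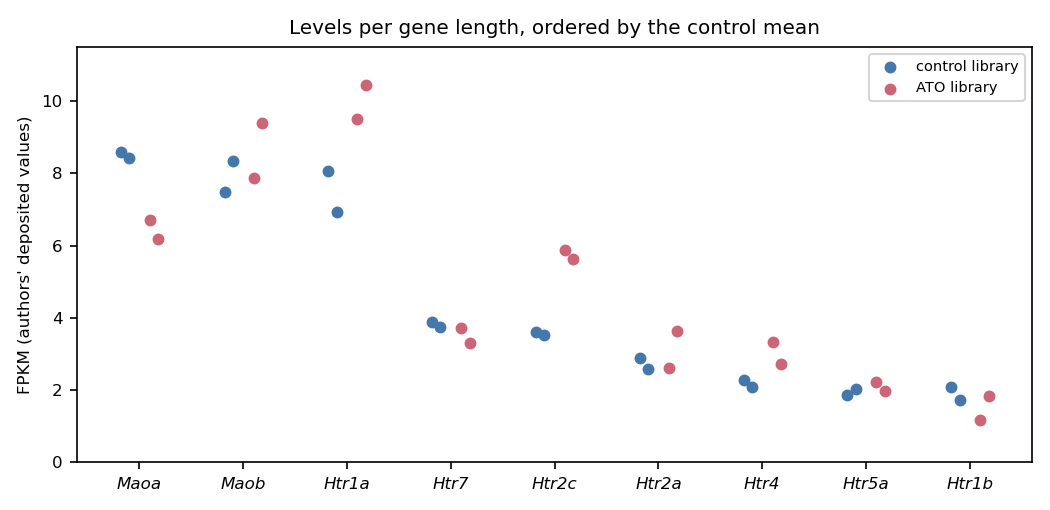
FPKM (the authors' deposited values, linear axis from 0) of the 9 genes in each library, ordered by the control mean; each point is 1 library. Maoa leads the controls at 8.60 and 8.43, and Htr1a leads ATO at 9.52 and 10.46.

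Genes whose pattern over the 4 libraries lay nearest to that of a member were searched by the Euclidean distance of centred log2 CPM. Nearest to Htr2c, which had the highest fold change, were the carbonic anhydrase gene Car12 (distance 0.023), the monoamine transporter gene Slc29a4 (0.055), the growth factor gene Bmp4 (0.055), the adiponectin receptor gene Adipor2 (0.064) and the zinc finger gene Zscan22 (0.065). Nearest to Maoa, which had the lowest, were the nucleotide hydrolase gene Nudt16 (0.039), the transferrin receptor gene Tfrc (0.048), Cntnap3 (0.053), the periaxin gene Prx (0.054) and Tubgcp5 (0.059). With 4 libraries many genes share a pattern, and the distances are a description.

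The other genes of serotonin handling and signalling were taken from 8 lists with 123 genes, of which 105 were tested and 3 rose in ATO, or 2.86%, against 2.87% of all genes. None of the 105 fell in edgeR's quasi-likelihood test. The 3 were Slc29a4, Gnai3 and Creb1, each in another list.

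Among 14 genes of amine uptake and the steps after monoamine oxidase, Slc29a4 rose. It encodes PMAT, a low-affinity transporter that takes up serotonin and dopamine. Its counts were 551 and 518 in control and 1004 and 945 in ATO, with no overlap. The level went from 35.8 ± 2.17 to 57.3 ± 0.528 CPM (SD, n = 2), which is log2 0.68 ± 0.09 (SE) at an edgeR adjusted p of 0.000549. It passed under every alternative that kept all libraries. The adjusted p lay between 1.15e-05 (edgeR with the replicate number as a block) and 0.000845 (edgeR scaled by library size only). With 1 library left out the log2 fold change of Slc29a4 ran from 0.61 to 0.74. The summed choroid plexus markers given above were higher in the same ATO libraries, and their part in its rise was not tested. Of the same list Rnls, which encodes the flavin enzyme renalase and is named here because of its values, had 57 and 45 counts in control and 32 and 22 in ATO (log2 -1.11 ± 0.32, edgeR adjusted p = 0.0761) and did not pass.

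The other serotonin receptor genes tested were Htr6, Htr3a, Htr5b and Htr1f, the last pair named after their values were seen. Of these 4, 0 passed in edgeR, limma-voom or DESeq2, and 0 had an unadjusted p under 0.05 in edgeR. Htr6, which couples to Gs, had 68 and 77 counts in control and 105 and 103 in ATO, a log2 fold change of 0.33 ± 0.21 (SE). Htr3a, the gene of the ion channel receptor found on interneurons, was at 14.6 ± 0.0827 CPM in control and 12.7 ± 0.614 in ATO (SD, n = 2). Htr1d, Htr2b and Htr3b were listed but not found by name among the 15713 genes, so they were not tested.

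Serotonin synthesis, its cofactor tetrahydrobiopterin and vesicle packaging were covered by 9 tested genes. Of them 0 passed in edgeR, limma-voom or DESeq2, and 1 had an unadjusted p under 0.05 in edgeR. That gene was Gch1, the first enzyme of cofactor synthesis, with 25 and 20 counts in control and 47 and 54 in ATO (log2 0.97 ± 0.33, edgeR adjusted p = 0.122). The vesicle transporter gene Slc18a2 had 7.74 ± 0.105 CPM in control and 9.80 ± 0.953 in ATO (log2 0.34 ± 0.18). Tph2, the rate-limiting enzyme of serotonin synthesis in raphe neurons, was named after its values were seen and had only 16 to 23 counts per library. Of 10 listed marker names for raphe neurons (Fev and Pet1 name the same gene) 4 genes were tested, 3 of which are also in the synthesis list. These tested markers summed to 19.1 to 20.5 CPM in control and 22.8 to 23.1 in ATO. In the kynurenine branch, which takes tryptophan away from serotonin synthesis, 0 of 4 tested genes passed in edgeR, limma-voom or DESeq2 and 0 had an unadjusted p under 0.05 in edgeR. Kyat1 was at log2 0.28 ± 0.15 and Tdo2 at -0.25 ± 0.18.

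Downstream of the receptors, 1 of 13 genes of Gi/o proteins and their potassium channels rose, Gnai3, which encodes an inhibitory G protein subunit. It went from 33.6 ± 2.14 to 45.2 ± 3.18 CPM (SD, n = 2), log2 0.43 ± 0.10 (SE), with an edgeR adjusted p of 0.0298. The call ended in DESeq2 (adjusted p = 0.0793), without control replicate 2 (log2 0.36) and without ATO replicate 2 (log2 0.35). With all libraries kept, the lowest adjusted p of Gnai3 was 0.00521, from edgeR with the replicate number as a block. Of 22 genes of Gs and cyclic AMP signalling 1 rose, Creb1, a transcription factor that cyclic AMP activates through protein kinase A. Its counts were 775 and 703 in control and 1262 and 1026 in ATO, which is log2 0.44 ± 0.10 (SE) at an edgeR adjusted p of 0.0258. The call ended without control replicate 2 (log2 0.35) and without ATO replicate 1 (log2 0.32). With all libraries kept, the lowest adjusted p of Creb1 was 0.00105, again from edgeR with the replicate number as a block.

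In the Gq and phospholipase C list 0 of 15 genes passed in edgeR, limma-voom or DESeq2, and 1 had an unadjusted p under 0.05 in edgeR. The diacylglycerol kinase gene Dgkz was at log2 -0.20 ± 0.08 and the protein kinase C gene Prkcb at -0.22 ± 0.10. The list's median log2 fold change was -0.11. Its summed level was 2877 and 2927 CPM in control, 2548 in ATO replicate 1 and 2888 in ATO replicate 2, so the ATO libraries differed. Without ATO replicate 2, Itpr1 and Prkcb passed, both lower. The last list held receptor partners, RNA editing enzymes and gene regulators, and 0 of its 24 genes passed in edgeR, limma-voom or DESeq2, with 1 at an unadjusted p under 0.05 in edgeR. The transcription factor gene Sp3 was at log2 0.19 ± 0.08 and Cc2d1b, a repressor of Htr1a transcription, at -0.24 ± 0.12.

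**Figure D5:**
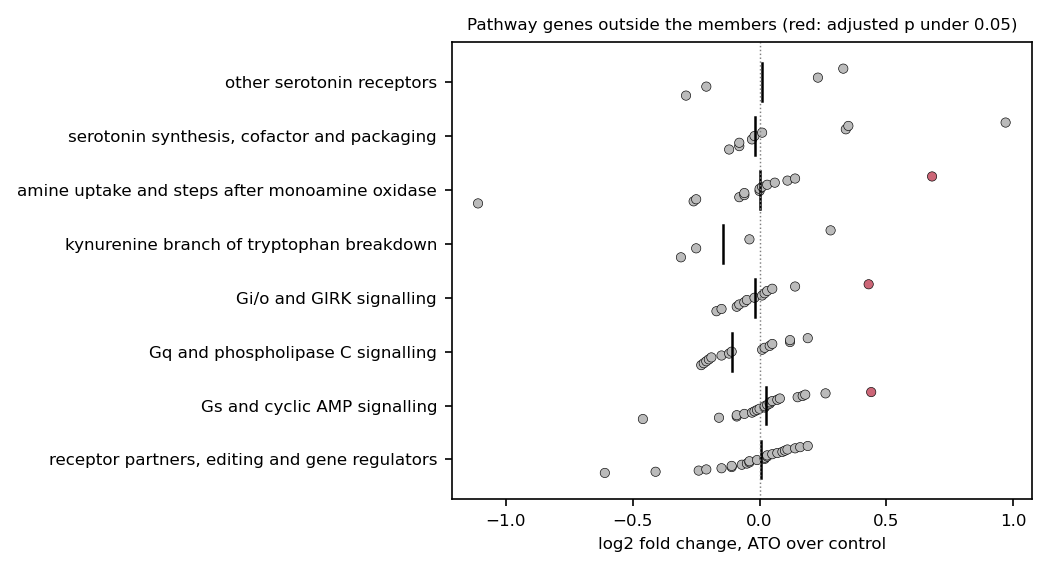
Log2 fold change of ATO over control for the tested genes of the 8 pathway lists, where each point is a gene, each black line a list's median and red marks an edgeR adjusted p under 0.05. Only Slc29a4 (0.68), Gnai3 (0.43) and Creb1 (0.44) are red.

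Markers of hippocampal regions were counted in all 4 libraries, but so were those of other regions, so detection alone does not bear out the tissue label. Subiculum and neocortex summed to 374 and 385 CPM in control and 341 and 332 in ATO. For striatum these were 190 and 201 against 213 and 223, and for thalamus and habenula 117 and 123 against 142 and 132. In the first of these lists 1 gene fell, and in each of the others 1 rose. All marker lists were chosen with earlier results known, and over all genes 2.87% rose and 0.859% fell. Library totals were 14832214 to 17251032 counts. Markers of CA1 pyramidal neurons, where Htr1a is dense, summed to 868 and 861 CPM in control and 606 and 797 in ATO, and 4 of 10 fell. Those of dentate granule neurons summed to 749 and 611 CPM in control and 893 and 763 in ATO, and 2 of 12 rose. For CA3 and CA2 the sums were 829 and 823 CPM in control and 863 and 820 in ATO, with 1 of 12 higher. Interneuron markers summed to 1472 and 1547 CPM in control and 1297 and 1380 in ATO, with 1 of 12 lower. Ependymal markers rose in 8 of 11 cases, with sums of 19.1 and 23.6 CPM in control and 55.5 and 40.3 in ATO. Astrocyte markers, set beside Maob, summed to 4870 and 4624 CPM in control and 4642 and 4911 in ATO, with 1 of 12 higher. Their log2 fold changes ran from -0.29 to 0.44, and 8 of the 12 had an unadjusted p under 0.05 in edgeR. The part of any of these marker sets in the values of Htr1a, Htr4, Maoa and Maob was not tested.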

How the data were processed

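The authors name the mouse build GRCm38 and, among their tools, HISAT2 2.0.1 and HTSeq 0.6.1, per the submitters' processing notes; what each did, and how it was set, is not stated there. Per the file headers the deposited table holds counts and FPKM values per library, and the authors' log2 fold change, p-value and adjusted p-value. The deposited FPKM values fitted the total count and the GENCODE vM21 exon length of each of the 9 genes (ratio 1.00).

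The main test was the quasi-likelihood test of edgeR 4.0.16 (R 4.3.3) on ATO against control over 15713 genes, after TMM scaling (factors 0.994 to 1.01) and filterByExpr, which removed 0 genes, with Benjamini-Hochberg adjustment and a threshold of 0.05. The SE is the log2 fold change divided by the square root of F. The common biological coefficient of variation was 7.16%. Alternatives were library size only, DESeq2 1.42.0, limma-voom (limma 3.58.1), other filters, a replicate block and leaving out each library. Distances used log2 CPM with a prior count of 2, over protein-coding genes without predicted names. The Poisson error given for counts covers counting only.

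The 9 genes, the pathway lists and the marker lists were chosen with earlier results of these data known. Named are the 9 genes, genes of a pathway list past the threshold (up to 4) or else the 2 with the smallest p, 5 nearest patterns of the members with the highest and lowest fold change, and exceptions marked in the text.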

Additional observations from a re-analysis of the deposited data

How the results depend on the processing

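Each result was recomputed under 10 alternatives, of which the fit without a low-count filter repeats the main one, since filterByExpr removed 0 genes. Over all genes 586 passed, 316 in DESeq2's Wald test, 1366 with the replicate number as a block and 222 to 611 with 1 library left out (222 without control replicate 2). Of the 9 members 3 were past the threshold, 1 (Htr2c) in DESeq2, 1 (Htr2c) when scaled by library size only, and 1 to 2 with 1 library left out. The replicate block gave 2 genes past the threshold in the list of amine uptake and later steps (1 without it), 1 in the Gq list (0 without it) and 2 in the Gs list (1 without it). The labels do not say that a replicate number marks a shared litter, batch or day, so the numbers are not taken to pair the samples. The deviations from the group means correlated by 0.0877 across genes between libraries of the same replicate number. With so few libraries per group this cannot settle whether they are paired. In the Gi/o list 0 genes passed in DESeq2's Wald test and 0 to 1 with 1 library left out, against 1; such fits gave 0 to 2 genes in the Gq list and 0 to 2 in the Gs list. Without ATO replicate 2 the log2 fold change reversed for Htr2a (-0.08) and Maob (-0.02) and moved to -0.72 for Htr1b; without ATO replicate 1 it was 0.41 for Htr2a and 0.25 for Maob. All other values of the 9 genes kept their direction. A library left out leaves 1 sample in its group, which is then taken to vary like the other group. Other causes of these shifts were not tested.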
